A study of Mus musculus with 12 samples.

Results

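The 9 genes described here belong to the plasminogen activation and blood clotting systems and were measured in the mouse mammary carcinoma line 4T1, among 19937 genes with a probe set of their own in the deposited table. They are the activators Plau and Plat, the receptor Plaur, the inhibitor Serpinb2, the clotting genes F3, F5 and F13a1, and the anticoagulant genes Tfpi and Thbd. Each was read from the brightest probe set whose only annotated gene symbol is the member, and each of the 9 had exactly 1 such probe set. Tfpi, F5 and F13a1 were chosen by measured values, the differences of their line means on these arrays, so their differences are described here with no test. The other 6 were chosen for their function and were tested, although the Plaur difference between the mutB1 and FL lines was already known.

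The samples are 12 Affymetrix Mouse Gene 1.0 ST arrays in 4 lines of 3 arrays, all of the genetic background BALB/cfC3H and all grown in 0.03% serum for the last 48 h. The lines are mutB1, ΔSAP and FL, named for constructs of Mkl1 (now Mrtfa), a coactivator of serum response factor (Srf), and a control line. From its name FL is taken as the whole Mkl1 protein, mutB1 as Mkl1 with the Srf-binding B1 region mutated, and ΔSAP as Mkl1 without its SAP domain. The series set mutB1 and ΔSAP against FL to find which genes depend on those parts of the protein. The labels name 1 stable line per construct, and the promoter driving the constructs is not given in the sources used here, so a construct and its line cannot be told apart. The p-values below measure spread among the 3 arrays within a line, pooled over the 4 lines, and not spread among independently made lines of a construct. In a bulk sample, fewer cells that express a gene and less RNA per cell cannot be told apart.

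Plasminogen is a circulating protease precursor that urokinase (Plau) and tissue plasminogen activator (Plat) cleave to plasmin, which dissolves fibrin and helps break down matrix. Urokinase works on the cell surface when bound to its receptor Plaur, and serpins such as PAI-2 (Serpinb2) block the activators. Clotting starts when tissue factor (F3) meets factor VII, runs through factor V (F5), the cofactor with which factor X makes thrombin, and ends with fibrin that factor XIII (F13a1) cross-links. Tfpi blocks the tissue factor complex, and thrombomodulin (Thbd) turns thrombin towards the anticoagulant protein C. Carcinoma cells are known to make both urokinase and tissue factor.

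All values are the authors' log2 RMA values per probe set, and each difference is the first-named line minus the second on that scale. Line means below 6.35, the smallest of the 12 array medians, are called low, since RMA gives no detection call and such a signal may be background. Mkl1 RNA was 11.29 ± 0.11 in mutB1, 11.92 ± 0.04 in ΔSAP and 12.08 ± 0.06 in FL, against 9.27 ± 0.01 in control (SD, n = 3). Of the epithelial markers Epcam, Krt8, Krt18, Krt7, Cdh1 and Cldn7, 5 of 6 were above the low level in every line and Cldn7 was low. All 6 endothelial markers were low in every line, and 5 of 6 macrophage markers were low, with Cd68 above. Of 5 platelet markers Pf4, Gp9 and Ppbp were low in every line, and Itga2b and Itgb3 were not. Of 6 fibroblast markers Lum and Thy1 were low in every line, Dcn was low in all lines but FL, and Col1a1, Col3a1 and Pdgfra were not low. Of 5 hepatocyte markers only Apoa1 was above the low level.

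The sequences just before the transcription starts of the 5 members that differed most clearly and have an entry are shown because Mkl1 acts through Srf, which binds the CArG box, and because Plaur and tissue factor are known targets of AP-1. They come from RefSeq on build GRCm38.p6, which held 6 of the 9 members (Serpinb2 besides these 5), and Plau, Plat and Thbd are named only. Each line gives the 250 bases upstream of the start, 5′ to 3′ on the gene's strand, with capitals at matches on either strand to TGANTCA (AP-1), GGGCGG (GC box), TATAAA (the TATA box), the TEAD motif GGAATG or the CArG box. For F13a1 and Tfpi, which have 2 starts in the table, the outer start is shown.
Plaur, chr7:24462233-24462482, plus strand: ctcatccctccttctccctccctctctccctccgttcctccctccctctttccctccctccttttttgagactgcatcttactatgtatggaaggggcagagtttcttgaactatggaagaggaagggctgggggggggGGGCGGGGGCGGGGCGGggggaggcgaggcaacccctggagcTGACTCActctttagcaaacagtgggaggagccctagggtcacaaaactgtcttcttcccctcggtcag
F3, chr3:121723287-121723536, plus strand: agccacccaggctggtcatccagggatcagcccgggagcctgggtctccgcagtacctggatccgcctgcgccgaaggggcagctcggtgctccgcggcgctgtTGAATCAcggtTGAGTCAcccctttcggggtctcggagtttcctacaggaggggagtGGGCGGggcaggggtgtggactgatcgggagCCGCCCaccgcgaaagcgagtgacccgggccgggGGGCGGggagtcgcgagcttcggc
Tfpi, chr2:84476760-84477009, minus strand: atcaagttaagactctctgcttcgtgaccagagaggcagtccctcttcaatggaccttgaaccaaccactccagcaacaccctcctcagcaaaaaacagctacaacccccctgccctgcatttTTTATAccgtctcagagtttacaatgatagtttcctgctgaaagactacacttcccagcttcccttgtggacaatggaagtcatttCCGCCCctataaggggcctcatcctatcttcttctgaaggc
F5, chr1:164151585-164151834, plus strand: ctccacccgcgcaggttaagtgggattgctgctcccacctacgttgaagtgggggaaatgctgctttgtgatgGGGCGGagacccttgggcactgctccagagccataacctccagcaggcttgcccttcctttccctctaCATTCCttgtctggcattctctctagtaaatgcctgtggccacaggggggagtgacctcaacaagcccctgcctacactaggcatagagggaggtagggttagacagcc
F13a1, chr13:37050245-37050494, minus strand: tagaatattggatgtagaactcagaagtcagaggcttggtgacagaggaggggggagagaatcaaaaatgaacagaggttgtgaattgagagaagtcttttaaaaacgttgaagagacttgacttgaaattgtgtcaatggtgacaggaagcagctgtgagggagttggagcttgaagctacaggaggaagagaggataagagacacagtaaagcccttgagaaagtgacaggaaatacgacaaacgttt
Plaur held 1 AP-1 match, from base -69 to -63 counted back from the start, and 3 GC boxes, of which the inner 2 overlap by 1 base. F3 held 2 AP-1 matches, from -146 to -140 and from -135 to -129, and 3 GC boxes. Among 32851 mouse promoters of this length, 6.75% held an AP-1 match and 32.7% a GC box. Tfpi held a GC box and a reversed TATA box, where 12.4% of promoters hold a TATA box on either strand. F5 held a GC box and a TEAD match, which 12.6% hold on either strand. F13a1 held no match, and the CArG box, found in 1.47% of all promoters, was in none of these windows. A match is a string of letters and not a measured binding site, and no match says only that the letters are not in this window.

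The plasminogen activator Plat was higher in both mutant lines than in FL and control. Its log2 values were 9.93, 9.91 and 9.82 in the mutB1 arrays, 9.71, 9.71 and 9.79 in the ΔSAP arrays, 8.90, 8.88 and 9.05 in the FL arrays and 9.14, 8.94 and 9.03 in the control arrays. Every mutB1 and ΔSAP array lay above every FL and control array, while the FL and control arrays overlapped. The mutB1 line exceeded FL by 0.94 ± 0.06 (SE), a 1.92-fold difference (limma adjusted p = 2.07e-06), and ΔSAP exceeded FL by 0.79 ± 0.06, or 1.73-fold (limma adjusted p = 1.99e-05). Against control, Plat rose by 0.85 ± 0.06 in mutB1 (limma adjusted p = 5.77e-06) and by 0.70 ± 0.06 in ΔSAP (limma adjusted p = 2.23e-05). FL and control did not separate, at -0.09 ± 0.06 with a 95% confidence interval from -0.23 to 0.05 (limma adjusted p = 0.366). The order was mutB1, ΔSAP, control and FL, and mutB1 and ΔSAP, which differed by 0.15 (95% interval 0.01 to 0.29), also missed the threshold (limma adjusted p = 0.119).

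Urokinase (Plau), the activator that works at the cell surface, was higher in all 3 construct lines than in control. The 12 log2 values were 10.59, 10.66 and 10.60 in the mutB1 arrays, 10.82, 10.83 and 10.82 in the ΔSAP arrays, 10.68, 10.64 and 10.74 in the FL arrays and 10.34, 10.29 and 10.35 in the control arrays. The ΔSAP arrays stood highest and the control arrays lowest, with no overlap between control and any construct line. The rise over control was 0.49 ± 0.04 in ΔSAP (1.41-fold, limma adjusted p = 6.71e-06), 0.36 ± 0.04 in FL (1.28-fold, limma adjusted p = 4.41e-05) and 0.29 ± 0.04 in mutB1 (1.22-fold, limma adjusted p = 0.000351). Between mutB1 and FL the difference was -0.07 with a 95% interval from -0.15 to 0.01 (limma adjusted p = 0.226). ΔSAP minus FL was 0.14 ± 0.04 and missed the threshold (limma adjusted p = 0.0322), although it passed with a trended, robust variance prior (limma adjusted p = 0.00819). mutB1 minus ΔSAP was -0.21 ± 0.04 (limma adjusted p = 0.00266), a call that ended when each array was centred on its median, when these lines were fitted alone, and without mutB1 replicate 1 or 3 or ΔSAP replicate 2 or 3 (limma adjusted p 0.0103 to 0.0216).

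The urokinase receptor Plaur had a different order, with FL highest and mutB1 lowest. Plaur read 10.51, 10.42 and 10.58 in the mutB1 arrays, 11.02, 11.15 and 11.11 in the ΔSAP arrays, 11.39, 11.42 and 11.39 in the FL arrays and 10.96, 10.89 and 10.93 in the control arrays. No pair of lines overlapped. The summed linear level of 6 macrophage markers, of which all but Cd68 were low in every line, had the same order of lines. It ran from 467 to 554 in mutB1, 740 to 782 in ΔSAP, 862 to 908 in FL and 556 to 666 in control. The epithelial sum was highest in ΔSAP and the platelet sum in mutB1. The fibroblast sum was highest in mutB1 too, but there it overlapped control. The endothelial and hepatocyte sums overlapped among all lines. The part of any of these sums in the Plaur values was not tested. Plaur fell to 10.50 ± 0.08 in mutB1, against 11.40 ± 0.01 in FL (SD, n = 3), which is 1.86-fold lower (-0.90 ± 0.05, limma adjusted p = 4.77e-07). That difference was known before the test, so its p is not independent evidence. ΔSAP was lower than FL by a smaller amount, -0.31 ± 0.05 (1.24-fold, limma adjusted p = 0.00146), a call that ended with median centring (limma adjusted p = 0.0158) or with these lines fitted alone (limma adjusted p = 0.0126). Set against control, Plaur was higher in FL by 0.47 ± 0.05 (limma adjusted p = 3.63e-05) and lower in mutB1, at -0.42 ± 0.05 (limma adjusted p = 0.000145). The mutB1 line was also lower than ΔSAP, at -0.59 ± 0.05 (limma adjusted p = 1.14e-05), and ΔSAP minus control was 0.17 (limma adjusted p = 0.0339). The mutB1 line had the highest mean of Plat and the lowest mean of Plaur among the 4 lines. The mutB1 line also held less Mkl1 RNA than FL (-0.79 ± 0.06, limma adjusted p = 2.79e-06), and the part of that difference in Plaur or Plat was not tested.

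Serpinb2, the inhibitor PAI-2, was low in every line. Its arrays read 5.00, 4.72 and 4.78 in the mutB1 arrays, 4.71, 4.91 and 4.73 in the ΔSAP arrays, 4.71, 5.10 and 4.94 in the FL arrays and 4.83, 4.62 and 4.59 in the control arrays. The 4 lines overlapped. Its 6 differences lay between -0.13 and 0.23, their 95% intervals between -0.38 and 0.49, and the limma adjusted p between 0.177 and 0.809. The signal may be background, so these values do not show that the lines share a level of Serpinb2.

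**Figure D1:**
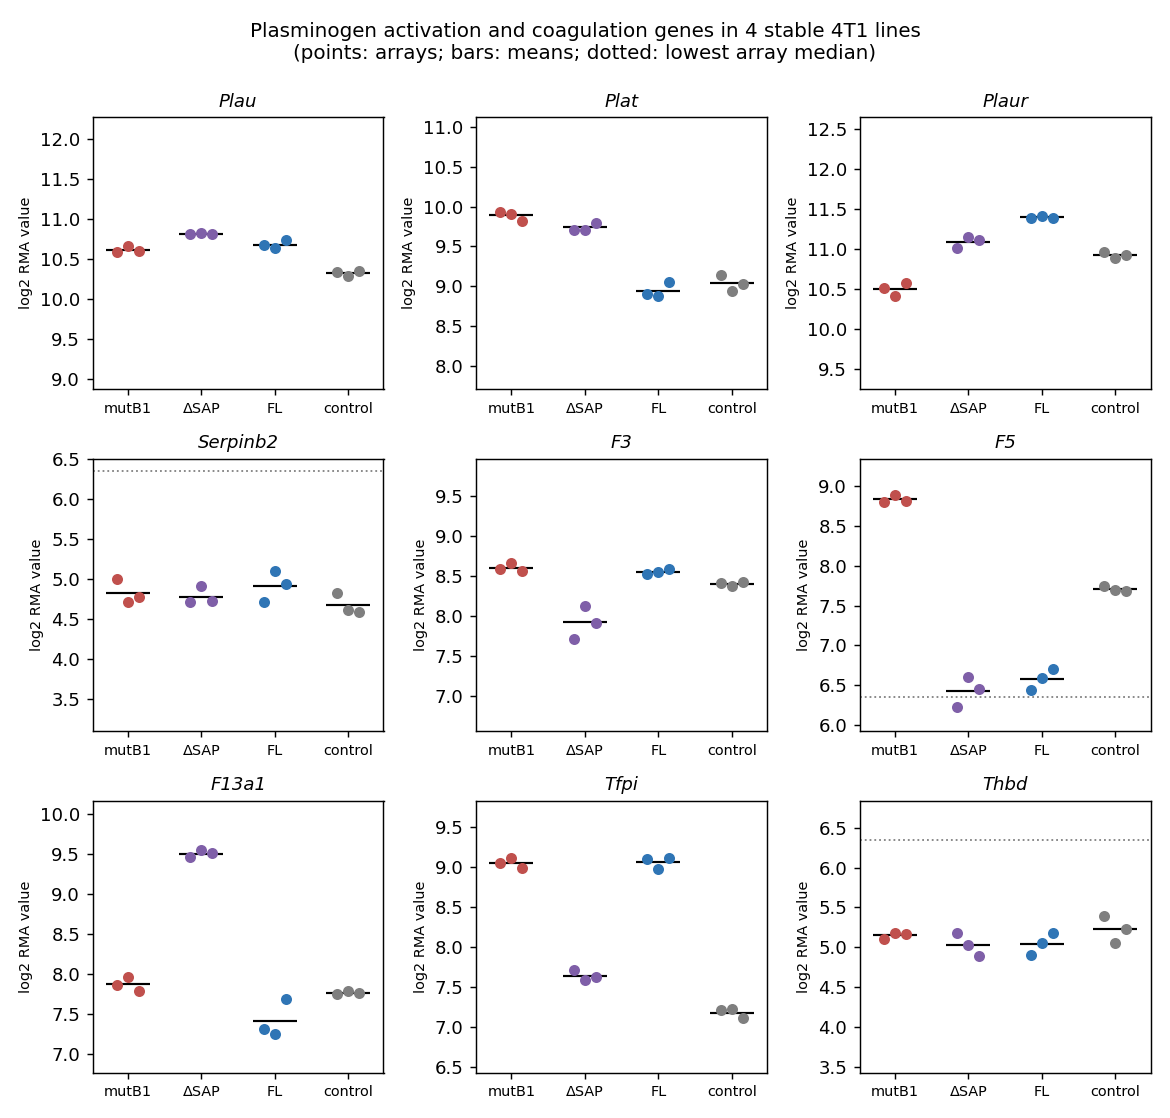
Log2 RMA value (vertical axis, every panel with the same span) of the 9 genes on each array of the mutB1, ΔSAP, FL and control lines, with bars at the line means and a dotted line at 6.35, the lowest array median, where it falls in the panel. Plat stands high in mutB1 and ΔSAP, Plaur lowest in mutB1, F3 lowest in ΔSAP, F5 highest in mutB1 at 8.83 and F13a1 highest in ΔSAP at 9.51, while Serpinb2 and Thbd lie under the dotted line throughout.

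Tissue factor (F3), which starts clotting, was lower in ΔSAP than in the other lines. F3 gave 8.59, 8.66 and 8.56 in the mutB1 arrays, 7.71, 8.12 and 7.91 in the ΔSAP arrays, 8.53, 8.55 and 8.59 in the FL arrays and 8.41, 8.38 and 8.42 in the control arrays. All 3 ΔSAP arrays lay under all 9 others, and they also spread most, from 7.71 to 8.12. F3 was 1.56-fold lower in ΔSAP than in FL (-0.64 ± 0.08, limma adjusted p = 0.000423) and 1.40-fold lower than in control (-0.49 ± 0.08, limma adjusted p = 0.00168). Both calls ended when the 2 lines were fitted alone, without the spread of the other lines (limma adjusted p = 0.0131 and 0.0277). mutB1 exceeded ΔSAP by 0.69 ± 0.08 (1.61-fold, limma adjusted p = 0.00017). The other 3 lines followed in the order mutB1, FL and control, and none of their pairs passed, with differences of 0.05 between mutB1 and FL (95% interval -0.14 to 0.23), 0.15 between FL and control (-0.03 to 0.34) and 0.20 between mutB1 and control (0.01 to 0.38), and limma adjusted p of 0.751, 0.24 and 0.141.

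Thrombomodulin (Thbd), the thrombin receptor of endothelium, was low in every line. Its values were 5.10, 5.18 and 5.17 in the mutB1 arrays, 5.18, 5.03 and 4.89 in the ΔSAP arrays, 4.90, 5.05 and 5.18 in the FL arrays and 5.39, 5.06 and 5.23 in the control arrays. The lines overlapped in all pairs. The 6 differences ranged from -0.19 to 0.12, with 95% intervals between -0.41 and 0.34 and limma adjusted p between 0.215 and 0.967, and the signal may be background.

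Factor V (F5), the cofactor of the enzyme complex that makes thrombin, had the widest span of the 9 genes. F5 read 8.80, 8.88 and 8.81 in the mutB1 arrays, 6.23, 6.61 and 6.45 in the ΔSAP arrays, 6.44, 6.59 and 6.71 in the FL arrays and 7.75, 7.69 and 7.68 in the control arrays. The mutB1 arrays stood above all others, the control arrays in the middle, and the FL and ΔSAP arrays overlapped just above the low level, with 1 ΔSAP array under it. mutB1 was 4.75-fold higher than FL (2.25 ± 0.09) and 2.18-fold higher than control (1.12 ± 0.09). FL and ΔSAP lay on the other side of control, at -1.12 ± 0.09 and -1.28 ± 0.09. ΔSAP minus FL was -0.15 ± 0.09, within the spread of these arrays. Since F5 was chosen for such differences, its values are a description. The summed linear level of the 5 platelet markers ran from 1796 to 1885 in mutB1, 987 to 1061 in ΔSAP, 933 to 1064 in FL and 1494 to 1597 in control, and that of the 6 fibroblast markers from 2206 to 2352, 1202 to 1281, 1024 to 1140 and 2069 to 2274 in the same lines. Both sums were highest in mutB1 and next in control, as F5 was, but the fibroblast ranges of mutB1 and control overlapped. Of the platelet markers only Itga2b and Itgb3 were not low. The epithelial sum was lowest in mutB1, at 15870 to 16667, and highest in ΔSAP, at 22114 to 22466, where F5 was lowest. The macrophage sum was highest in FL, and the endothelial and hepatocyte sums overlapped among all lines, the latter at 233 to 263. The part of any of these sums in the F5 values was not tested.

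F13a1, the catalytic subunit of the fibrin cross-linking enzyme, was highest in ΔSAP. The F13a1 arrays gave 7.87, 7.97 and 7.79 in the mutB1 arrays, 9.47, 9.55 and 9.52 in the ΔSAP arrays, 7.31, 7.25 and 7.69 in the FL arrays and 7.75, 7.79 and 7.77 in the control arrays. The 3 ΔSAP arrays lay at least 1.51 above every other array. ΔSAP was 4.28-fold higher than FL (2.10 ± 0.10) and 3.34-fold higher than control (1.74 ± 0.10), and mutB1 minus ΔSAP was -1.64 ± 0.10. The mutB1 and control arrays overlapped, at a difference of 0.10. FL stood lowest, at -0.36 ± 0.10 against control, and its replicate 3 read 7.69 where the others read 7.31 and 7.25. Without replicate 3, the FL difference from control was -0.49 and that of ΔSAP from FL 2.23. F13a1 is also a macrophage gene. The summed linear level of the 6 macrophage markers, of which Ptprc, Csf1r, Adgre1, Itgam and Lyz2 were low in every line, ran from 467 to 554 in mutB1, 740 to 782 in ΔSAP, 862 to 908 in FL and 556 to 666 in control, which is highest in FL, where F13a1 was lowest, and next in ΔSAP, where F13a1 was highest. Its part in the F13a1 values was not tested.

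Tfpi, the inhibitor of the tissue factor complex, was high in mutB1 and FL and lower in ΔSAP and control. Its log2 values were 9.05, 9.12 and 8.99 in the mutB1 arrays, 7.71, 7.59 and 7.63 in the ΔSAP arrays, 9.10, 8.98 and 9.12 in the FL arrays and 7.21, 7.23 and 7.11 in the control arrays. mutB1 and FL overlapped at a difference of -0.01 ± 0.06. Over control, Tfpi was 3.70-fold higher in FL (1.89 ± 0.06), 3.66-fold higher in mutB1 (1.87 ± 0.06) and 1.38-fold higher in ΔSAP (0.46 ± 0.06), with no overlap between control and the others. ΔSAP was 2.68-fold lower than FL (-1.42 ± 0.06). In ΔSAP against FL, tissue factor and its inhibitor were both lower, F3 at -0.64 and Tfpi at -1.42. In mutB1 and FL against control, Tfpi stood 1.87 and 1.89 higher while F3 stood 0.20 and 0.15 higher, neither of which passed.

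**Figure D2:**
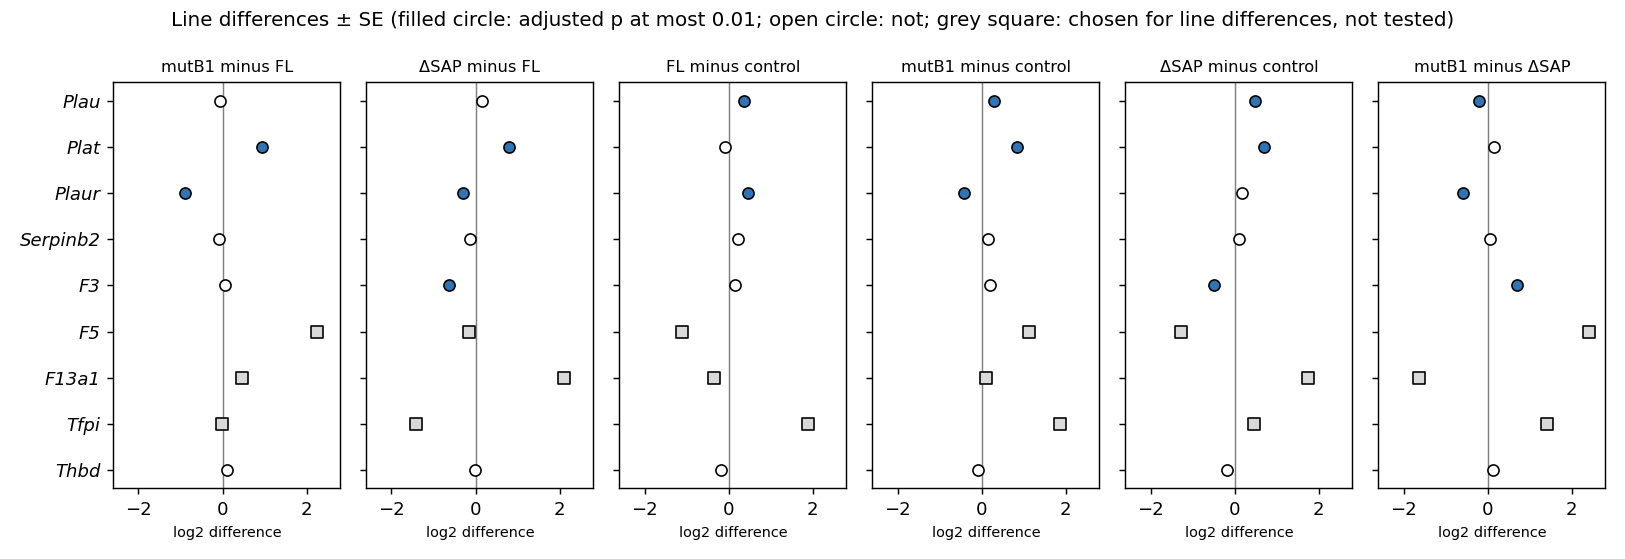
Difference between lines (horizontal axis, log2, first-named minus second) for the 9 genes in the 6 pairs of lines, with SE bars that are mostly shorter than the symbols are wide. Filled circles passed an adjusted p of 0.01 in limma, open circles did not, and grey squares are the 3 genes chosen for line differences. Plat is filled to the right of 0 in both mutant lines against FL, and Plaur is filled to the left.

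Counted over the 6 tested genes, 2 or 3 differences passed in each pair of lines, and none reached the 2-fold change that the series' filters also require. In mutB1 against FL, 1 rose (Plat) and 1 fell (Plaur), where 17.8% of 34760 probe sets passed the adjusted p of 0.01 (9% higher, 8.82% lower). In ΔSAP against FL, 1 rose (Plat) and 2 fell (Plaur and F3), against 11.4% of all probe sets (5.7% higher, 5.73% lower), and Plat was the 1 gene that passed with these lines fitted alone. In FL against control 2 rose (Plau and Plaur) and 0 fell, against 20% (9.61% higher, 10.4% lower). In mutB1 against control 2 rose (Plau and Plat) and 1 fell (Plaur), against 12.7% (5.83% higher, 6.89% lower), and in ΔSAP against control 2 rose (Plau and Plat) and 1 fell (F3), against 14.8% (6.96% higher, 7.83% lower). In mutB1 against ΔSAP 1 was higher (F3) and 2 were lower (Plau and Plaur), against 15.1% (8% higher, 7.07% lower). In the F test over the 4 lines 4 of 6 passed (Plau, Plaur, Plat and F3, limma adjusted p 1.45e-06 to 0.000247), where 27.7% of all probe sets did. The pairs of lines share arrays, so these counts are not independent of each other. They also include Plaur, whose difference between mutB1 and FL was known beforehand.

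In all, 20 of the 36 tested differences had an unadjusted limma p under 0.05. The share over all probe sets at that level was not computed, so no excess can be read from this count. At the adjusted threshold 16 of the 36 passed, beside 11.4% to 20% of all probe sets in the 6 pairs. Plaur, whose difference between mutB1 and FL was known beforehand, gave 5 of the 16. All 16 came from Plau, Plaur, Plat and F3, which were not low in any line, whereas the share over all probe sets includes low ones. The 2 shares are therefore not of like genes, and no enrichment of the pathway can be read from them. With a minimum fold of 2 and a minimum mean of 4 required as well, 0 of 36 were called, here and with the trended, robust prior. Those filters called 1.6% of all probe sets in mutB1 against FL, 0.503% in ΔSAP against FL, 1.83% in FL against control, 1.21% in mutB1 against control, 1.34% in ΔSAP against control and 1.42% in mutB1 against ΔSAP. The median difference of the 6 genes lay between -0.07 (ΔSAP minus FL) and 0.19 (FL minus control), and the median over all probe sets between -0.03 and 0.03 in the 6 pairs.

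The rest of the pathway was read from a list of 43 other genes, of which 38 had a probe set of their own, and the other 5 were not analysed here. Of the 38, 26 were low in every line, including 13 of 17 clotting factors and processing genes. In mutB1 against FL 3 of the 38 rose and 3 fell (15.8% passed, beside 17.8% of all probe sets), with a median of 0.01 and 0 over all probe sets. In ΔSAP against FL 3 rose and 2 fell (13.2%, beside 11.4% of all probe sets), with a median of -0.04 and -0.03 over all probe sets. Against control, FL had 1 higher and 6 lower (18.4%, beside 20% of all probe sets). The mutB1 line had 2 higher and 4 lower (15.8%, beside 12.7%) and ΔSAP 1 higher and 5 lower (15.8%, beside 14.8%). In mutB1 against ΔSAP 4 were higher and 5 lower (23.7%, beside 15.1% of all probe sets). With only the lines compared in the fit, 2 passed in place of 5 in ΔSAP against FL, 2 in place of 6 in mutB1 against control and 3 in place of 6 in ΔSAP against control, and without FL replicate 2 the count in FL against control was 4 in place of 7. The list's medians lay between -0.08 and 0.08 in the 6 pairs, and those of all probe sets between -0.03 and 0.03. Apart from mutB1 against ΔSAP, these shares lay within a few points of those over all probe sets. They pool the genes that were not low with the 26 low ones, of which only F8 and Serpina5 passed anywhere. The pooled shares therefore say little about the genes that were not low.

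The endothelial protein C receptor gene Procr, whose protein presents protein C to the thrombin-thrombomodulin complex, was among those that fell. Procr averaged 9.24 ± 0.06 in mutB1, 9.65 ± 0.03 in ΔSAP, 10.01 ± 0.09 in FL and 9.82 ± 0.05 in control (SD, n = 3). Its difference from FL was -0.77 ± 0.05 in mutB1 (limma adjusted p = 1.99e-06) and -0.36 ± 0.05 in ΔSAP (limma adjusted p = 0.000748). Like Plaur, Procr was highest in FL and lowest in mutB1. Pros1, which encodes the protein C cofactor protein S, was the only listed gene past all 3 filters, at -1.02 ± 0.08 in mutB1 against control (limma adjusted p = 6.53e-06). Its mean was 6.33 ± 0.13 in mutB1, which is low, 7.31 ± 0.13 in ΔSAP, 6.90 ± 0.04 in FL and 7.35 ± 0.06 in control (SD, n = 3), so that fold may be understated.

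The thrombin receptor gene F2r was higher in ΔSAP than in FL by 0.35 ± 0.05 (limma adjusted p = 0.000707) and did not differ beyond the spread between mutB1 and FL (0.00 ± 0.05, limma adjusted p = 0.966). Anxa2 and S100a10, which form the cell-surface complex that binds plasminogen and Plat, moved little. Anxa2 passed only in FL against control (-0.14 ± 0.03, limma adjusted p = 0.00713), and S100a10 in mutB1 against control (-0.20 ± 0.03, limma adjusted p = 0.000971) and against ΔSAP (-0.14 ± 0.03, limma adjusted p = 0.00957).

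A few more genes are named after their values were seen. Of the genes low in every line, only F8 (factor VIII) and Serpina5 (the protein C inhibitor) passed anywhere. F8 was lower than in control in mutB1 (-0.72 ± 0.11, limma adjusted p = 0.000645), ΔSAP (-0.61 ± 0.11, limma adjusted p = 0.00187) and FL (-0.76 ± 0.11, limma adjusted p = 0.000277), and Serpina5 in ΔSAP (-0.32 ± 0.07, limma adjusted p = 0.00572). Vkorc1 and Ggcx, enzymes of the vitamin K cycle that modifies several clotting proteins, were both higher in mutB1 than in FL, by 0.60 ± 0.06 (limma adjusted p = 2.63e-05) and 0.37 ± 0.05 (limma adjusted p = 0.000246). Both were lower in FL than in control, Vkorc1 at -0.75 ± 0.06 (limma adjusted p = 3.63e-06) and Ggcx at -0.26 ± 0.05 (limma adjusted p = 0.00216). The same held in ΔSAP against control, at -0.74 ± 0.06 (limma adjusted p = 6.57e-06) and -0.34 ± 0.05 (limma adjusted p = 0.000635). The plasminogen receptor gene Plgrkt was 0.61 ± 0.06 higher in mutB1 than in FL (limma adjusted p = 3.71e-05). Lman1, the cargo receptor that carries factors V and VIII out of the endoplasmic reticulum, was lower in ΔSAP than in FL, at -0.44 ± 0.03 (limma adjusted p = 1.33e-05). Against control, Lman1 was higher in FL, at 0.41 ± 0.03 (limma adjusted p = 6.77e-06), and in mutB1, at 0.25 ± 0.03 (limma adjusted p = 0.00038). Its ΔSAP minus control difference was -0.04 (limma adjusted p = 0.495). Lrp1, the endocytic receptor that clears protease-inhibitor complexes, was 0.40 ± 0.06 higher in ΔSAP than in FL (limma adjusted p = 0.00171).

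**Figure D3:**
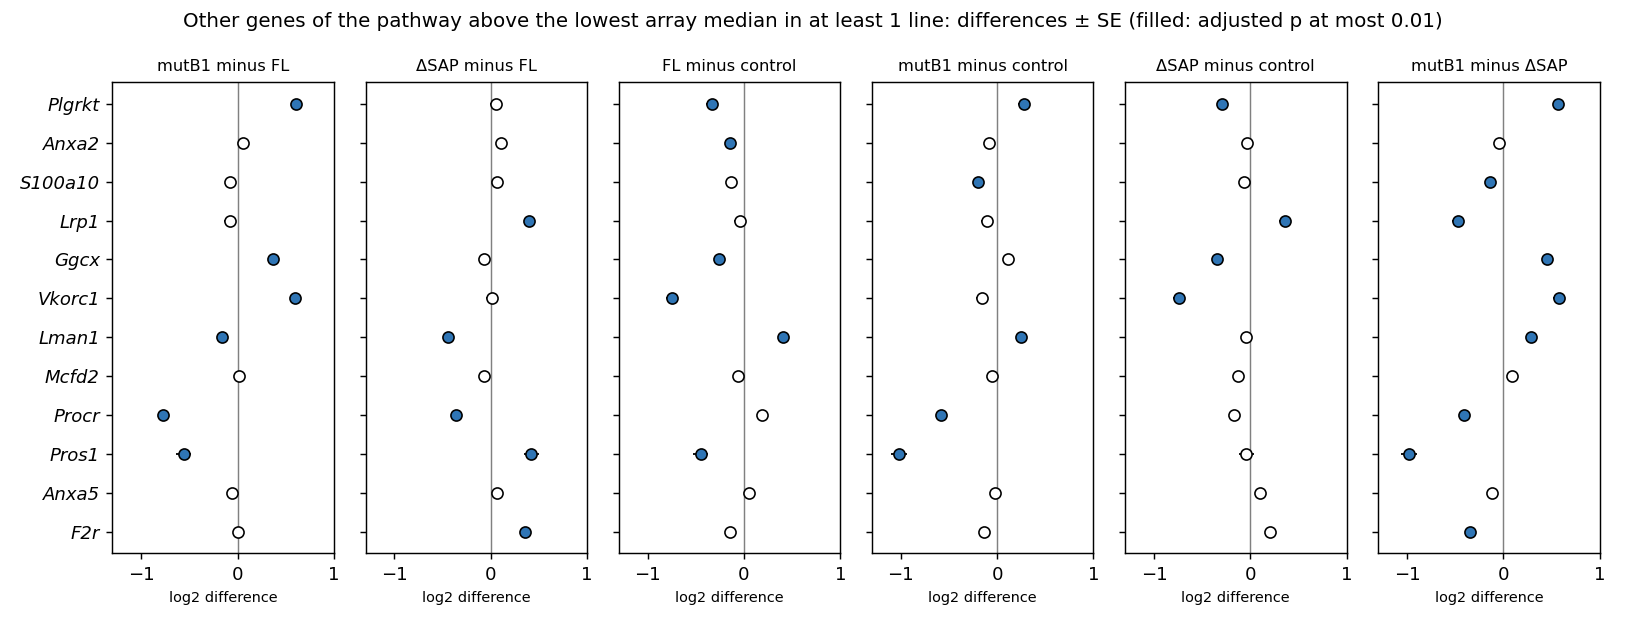
Difference between lines (horizontal axis, log2, first-named minus second, with SE bars) for the 12 other genes of the pathway that were above the lowest array median in at least 1 line. Filled circles passed an adjusted p of 0.01 in limma. Procr and Pros1 lie to the left in mutB1 against FL, and Plgrkt, Ggcx and Vkorc1 to the right.

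For F5, F13a1 and Tfpi, whose line means span 2.40, 2.10 and 1.89, the genes with the most similar values over the 12 arrays were sought among 18250 genes. The measure was the root mean square difference after each gene was centred on its own mean, and the arrays of a line share that line. Closest to F5 were Gdpd2 (0.18), the growth factor gene Fgf1 (0.24) and the transcription factor gene Hlf (0.25). Closest to F13a1 were Reps2 (0.25), Fam83b (0.28) and the tetraspanin gene Tspan13 (0.29). Fam83b was low in every line and Reps2 in all lines but ΔSAP, so part of their signal may be background. Closest to Tfpi were the inflammatory caspase gene Casp4 (0.14), the chemokine gene Ccl2 (0.14) and Cd274 (0.21), which encodes the checkpoint ligand PD-L1. The Ccl2 means were 11.67 in mutB1, 10.58 in ΔSAP, 12.03 in FL and 10.09 in control, and those of Tfpi were 9.05, 7.64, 9.07 and 7.18 in the same lines.

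**Figure D4:**
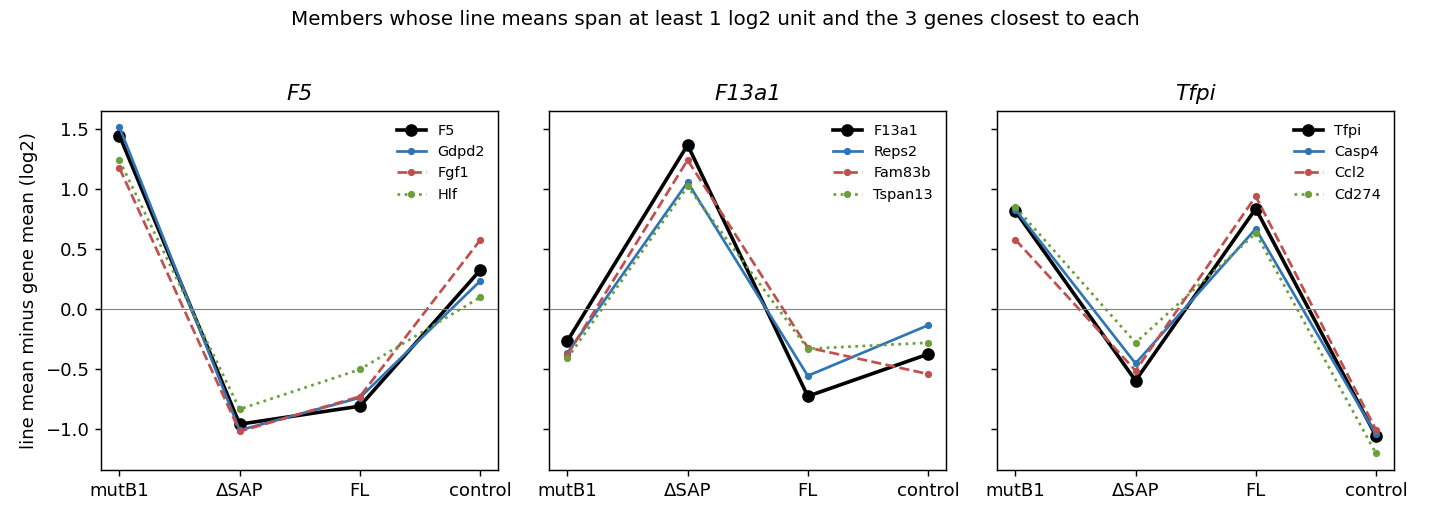
Line mean minus the gene's mean over the 4 lines (vertical axis, log2) for F5, F13a1 and Tfpi in black and the 3 genes closest to each in colour, in the mutB1, ΔSAP, FL and control lines. F5 and its closest genes peak in mutB1, F13a1 and its closest genes in ΔSAP, and Tfpi and its closest genes stand high in mutB1 and FL.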

How the data were processed

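Expression was measured on 12 arrays of 4 lines, 3 arrays each, from 100 ng of total RNA amplified and labelled per the labels' protocols. The authors deposited 1 log2 value per probe set and array. Per the series design text these are RMA values from the affy package, and RMA subtracts background, quantile-normalizes and summarizes probes. The submitters' processing notes name R 2.10.0. The build, probe set definition and scan batches were not given in the sources used here.

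Of 34760 probe sets, 21640 had 1 gene symbol in GEO's platform annotation, 1321 several and 11799 none. A RefSeq table of GRCm38.p6 gave current symbols by Entrez identifier (21553 matched). Line differences came from 1 limma 3.58.1 fit in R 4.3.3 (lmFit, eBayes) of the 4 line means, p-values were adjusted by Benjamini-Hochberg over the whole table, and the threshold was 0.01. The series' filters add a minimum fold of 2 and a minimum mean of 4, here over the 12 arrays, which 30212 probe sets passed. The number of arrays limits the precision. The fit was tested on simulated data.

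Members, lists and tests were chosen with earlier results of these data known. Of the pathway list the rule names any gene past all filters and otherwise a short fixed set, of which F2r, Procr, Anxa2 and S100a10 were measured and the rest is not reported here, and the 3 closest genes of members spanning at least 1. Replicate numbers of the titles did not pair the arrays: deviations of same-numbered arrays correlated at -0.20 to 0.17, over 0.1 in 2 of 18 pairs. Alternatives changed the variance prior, scaling, low-value filter, lines fitted and replicate block, and left out each array.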

Additional observations from a re-analysis of the deposited data

How the results depend on the processing

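Over 8 other settings and 12 arrays left out in turn, 1059 of 1080 values of the members' differences kept their direction and side of the threshold or, for the untested genes, moved by less than 1 SD. Signs turned for small differences of Serpinb2 and Thbd, which did not pass, and for Tfpi in mutB1 against FL, which ran from -0.06 to 0.03. Thbd in ΔSAP against FL was 0.02 after median centring and 0.02 after a further quantile normalization, against -0.01. Leaving out 1 array gave ranges of -0.08 to 0.06 for that difference, -0.16 to 0.00 for Thbd in mutB1 against control, and -0.19 to 0.01 and -0.03 to 0.11 for Serpinb2 in mutB1 against FL and against ΔSAP. Of 474 alternative counts 469 stayed within 1.5 times the main count. With only the lines compared in the fit, 1 tested gene passed in ΔSAP against FL in place of 3 (Plat), and of the pathway list 2 in ΔSAP against FL, 2 in mutB1 against control and 3 in ΔSAP against control passed, in place of 5, 6 and 6. Such fits hold 6 arrays. Without FL replicate 2 the list had 4 in FL against control in place of 7, in a range of 4 to 7 over the arrays left out. The fit with a replicate block changed no call of a tested gene, with 549 probe sets past all filters in mutB1 against FL and 175 in ΔSAP against FL. Some of the 1080 values could not change by design, and the count of 1059 includes them. Every member has 1 probe set, so averaging probe sets changed nothing, and a higher minimum mean acts only on the counts. For the untested genes, which have no p, the variance prior, low-value filter, replicate block and lines fitted alone leave the difference itself unchanged. So does leaving out an array of a line outside the pair. RMA values carry no detection call, which limits what can be said of Serpinb2, Thbd and the 26 low genes of the list.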

Other observations

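The measured protein-coding genes next to F5, F13a1 and Tfpi on their chromosomes, looked up after the members' values were seen, did not all share the members' order of lines. Beside F5 on chromosome 1, Sele, which encodes the leukocyte adhesion molecule E-selectin, stood at 7.40 in mutB1, 6.34 in ΔSAP, 6.35 in FL and 6.41 in control. It was higher in mutB1 than in FL by 1.05 ± 0.09 (limma adjusted p = 1.64e-05) and than in control by 0.98 ± 0.09 (limma adjusted p = 3.63e-05). The order of the Sele means was that of F5, although its control, FL and ΔSAP means lay close together. The ΔSAP and FL means of Sele are low and control lies just above the low level, so the sizes of these differences are uncertain. Next beyond Sele, Mettl18 also had the F5 order of means, at 8.01 in mutB1, 7.94 in control, 7.55 in FL and 7.49 in ΔSAP. It passed in mutB1 against FL (0.46 ± 0.10, limma adjusted p = 0.00794). The gene on the other side of F5, the thiamine transporter gene Slc19a2, was lower in mutB1 than in FL, at -0.45 ± 0.04 (limma adjusted p = 7.5e-06). Next beyond Slc19a2, Ccdc181 had its lowest mean in mutB1, at 8.21, against 8.36 in FL (limma adjusted p = 0.099).

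Beside F13a1 on chromosome 13, Ly86 and Nrn1 were low in every line, at 4.53 and 4.13 in ΔSAP against 4.70 and 4.13 in FL. Beside Tfpi on chromosome 2, Calcrl was low in every line (3.76 to 3.81). Ctnnd1, which encodes the cadherin-binding p120 catenin, lies on the other side of Tfpi and was higher than in FL in mutB1 by 0.33 ± 0.04 (limma adjusted p = 0.00014) and in ΔSAP by 0.27 ± 0.04 (limma adjusted p = 0.000872).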
